A study of Homo sapiens with 18 samples.

Results

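The neuropeptide and secretory granule genes followed here in Ewing sarcoma cells were the peptide precursors CCK, NPY and GRP, the receptors NPY1R and NPY5R, and the granule proteins VGF, CHGA, CHGB, SCG2 and SCG5. They were taken by symbol, and all 10 were found among the 58336 gene identifiers of the count tables. Their values were not used in choosing them, although the choice was made with earlier results of these data known. Ewing sarcoma is a tumour of bone and soft tissue driven by a fusion of EWSR1 to an ETS family transcription factor gene, here FLI1. The groups were the established lines TC-32, TC-71 and A673, each transfected at 20 nM with a control small interfering RNA (siNeg) or with one against FLI1 (siFLI1). Each of the 6 groups had 3 libraries, so 18 messenger RNA libraries were compared. Each line descends from a single tumour, and no label says that replicates came from separate cultures, so the p-values measure the spread between these libraries, which may be technical. TC-32 and TC-71 were sampled at 48 h according to the column names, and the A673 columns carry no time.

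Neuropeptides are cut from larger precursors, stored in dense-core secretory granules and released on stimulation. Granins are acidic proteins that help to build these granules, prohormone convertases and carboxypeptidases trim the precursors, and the finished peptides act on G protein-coupled receptors. Cholecystokinin and neuropeptide Y with its receptors are known features of Ewing sarcoma, where autocrine and paracrine effects on growth, survival and vessels have been described. The fusion protein binds ETS motifs with a GGAA core, and is known for activating genes from tandem GGAA repeats, on which normal ETS factors have little activity.

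The sequence around CCK is shown because CCK had the largest fall of the 10 genes in each line where it was compared and carries such a repeat beside its start. In the reference genome (GRCh38, the build named in the submitters' processing notes), the nearest run of at least 4 consecutive GGAA (or TTCC, on the other strand) lay 342 bp upstream of the annotated CCK start and held 11 repeats. The stretch chr3:42266271-42266570, read on the minus strand towards the gene, has the 11 repeats in capitals.
CCK upstream stretch: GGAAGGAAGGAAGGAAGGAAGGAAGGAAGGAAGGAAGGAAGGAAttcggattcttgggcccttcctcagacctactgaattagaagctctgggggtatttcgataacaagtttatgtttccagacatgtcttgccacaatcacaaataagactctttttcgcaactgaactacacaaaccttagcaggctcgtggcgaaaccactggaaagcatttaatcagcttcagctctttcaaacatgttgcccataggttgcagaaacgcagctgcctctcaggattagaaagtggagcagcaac
Of 20033 protein-coding genes, 20 (0.0998%) had such a run nearer to their start, and the median distance was 86.7 kb. The run nearest to NPY1R and NPY5R was one and the same, 101 kb and 102 kb from their starts, at chr4:163445579-163445618 (plus strand). The run nearest to GRP lay 25.5 kb from its start, beyond the end of the gene, at chr18:59245643-59245670 (plus strand).
NPY1R and NPY5R run: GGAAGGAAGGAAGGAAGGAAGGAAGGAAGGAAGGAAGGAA
GRP run: TTCCTTCCTTCCTTCCTTCCTTCCTTCC
The other 6 genes lay 19.6 to 224 kb from a run, of which VGF was the nearest (19.6 kb, 5 repeats) and CHGA the farthest (224 kb, 19 repeats). These are letters of the reference genome. The repeat lengths in the 3 lines were not measured here, and no binding data were used. Whether the run bears on the fall of CCK was not tested.

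**Figure D1:**
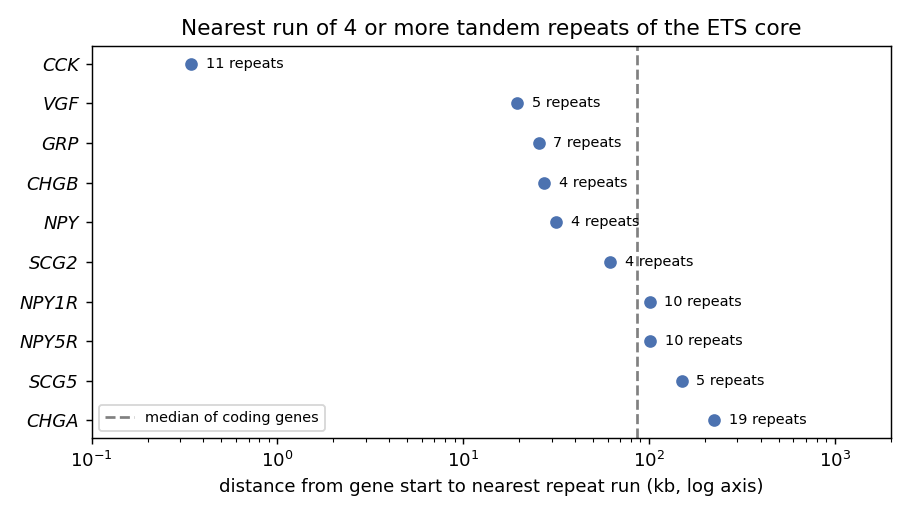
Distance in kb (log axis) from the annotated start of each of the 10 genes to the nearest run of 4 or more GGAA in the reference genome, with the number of repeats beside each point and the median of coding genes as a dashed line. CCK sits at 0.342 kb, and the other 9 genes lie at 19.6 kb or farther.

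Promoter windows of 300 bases, from 250 before to 50 after a RefSeq start (GRCh38.p14), were found for 8 of the 10 genes, all but CHGB and SCG2. The core GGAA was searched on both strands and occurred 1 to 7 times in the 10 windows of these genes, where 95.5% of 35116 windows of all genes hold it with a median of 3. The tandem GGAAGGAA, also searched on both strands and overlapping the GGAA core, occurred in none of the 10 windows and in 3.67% of all windows. The palindrome TGACGTCA, the cyclic AMP response element known from granin promoters, occurred once in VGF and once in CHGA, and in 1.85% of all windows. Both upstream stretches are printed with this element in capitals, as the only genes of the 8 that held it. Whether the element bears on the response to siFLI1 was not tested. The first is chr7:101165570-101165819 (minus strand) and the second is chr14:92922900-92923149 (plus strand).
VGF upstream stretch: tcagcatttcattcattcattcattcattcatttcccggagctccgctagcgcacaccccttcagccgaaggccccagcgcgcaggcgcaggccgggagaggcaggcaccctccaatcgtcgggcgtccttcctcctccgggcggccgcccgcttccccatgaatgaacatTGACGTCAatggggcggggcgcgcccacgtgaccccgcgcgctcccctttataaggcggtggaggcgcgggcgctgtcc
CHGA upstream stretch: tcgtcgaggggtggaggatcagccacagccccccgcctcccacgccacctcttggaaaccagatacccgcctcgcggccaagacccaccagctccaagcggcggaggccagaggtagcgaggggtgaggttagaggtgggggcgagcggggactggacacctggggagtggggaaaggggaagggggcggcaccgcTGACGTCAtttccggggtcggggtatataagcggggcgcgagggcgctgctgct

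Total counts per library ranged from 19685354 to 37234528 in TC-71, from 24102489 to 33669235 in TC-32 and from 114564478 to 120993564 in A673. FLI1 was lower in siFLI1 throughout, at log2 fold changes of -1.03 for TC-32, -1.47 for TC-71 and -2.08 for A673 (edgeR, SE 0.0638, 0.0684 and 0.0399). The Ewing markers NKX2-2, NR0B1, STEAP1, PRKCB, LIPI and FLI1 had counts in every line, and all 6 were lower in every line after siFLI1 (edgeR). CD99, the defining surface antigen, averaged 330 CPM in TC-32 and 729 CPM in A673 in siNeg but is listed at 0 in all TC-71 libraries. It is a pseudoautosomal gene, and 44 of the 45 genes of that class in the tables were at 0 in TC-71, against 16 in TC-32 and 15 in A673. Among markers of other cell types, HAND2, a sympathoadrenal factor, averaged 61.5 CPM in TC-32 siNeg and 42 CPM in siFLI1, and TH and DBH, the enzymes of catecholamine synthesis, at most 0.0736 CPM there. In A673, TH rose from 0.0165 to 0.326 CPM, while GATA3, another sympathoadrenal gene, fell from 0.947 to 0.382 CPM. The 5 sympathoadrenal genes together summed there to 18.5 to 19.6 CPM in siNeg and 17.8 to 18.2 CPM in siFLI1. The 3 muscle genes (MYOD1, MYOG and DES) summed to 0.264 to 0.379 CPM in TC-32 siNeg and 5.48 to 6.92 CPM in siFLI1, all but a trace of it DES, and went from at most 0.0332 to 0.363 to 0.483 CPM in A673 and from 0 to at most 0.123 CPM in TC-71. The 3 epithelial genes (EPCAM, CDH1 and KRT5) rose in sum from at most 2.06 to at least 4.83 CPM in TC-32, where CDH1 rose and KRT5 fell (log2 fold changes 4.74 and -0.97, edgeR). In A673 that sum went from 0.0246 to 0.135 CPM in siNeg to 0.302 to 0.351 CPM in siFLI1, with KRT5 rising from 0 counts in all siNeg libraries to 16, 21 and 13, and in TC-71 it lay at or under 1.15 CPM in both groups. The part of these shifts in the results was not tested. In bulk RNA, fewer cells that express a gene and less RNA per cell cannot be told apart.

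The response to siFLI1 was broad. At an adjusted p under 0.05 (edgeR, Benjamini-Hochberg over all genes tested), 81.3% of 16208 tested genes changed in TC-32, 71.9% of 17085 in TC-71 and 71% of 18427 in A673. Of the 10 genes, 7 were expressed well enough to be tested in TC-32, of which 5 fell, 1 rose and 1 was not past the threshold. In TC-71, 7 were tested, with 5 lower and 2 higher. In A673 all 10 were tested, with 6 lower, 3 higher and 1 not past the threshold. The share of all tested genes that fell was 40.1% for TC-32, 35% for TC-71 and 35% for A673, and the share that rose was 41.3%, 36.8% and 36%. The siRNA groups did not overlap for 6 of the 7 tested members of TC-32, 7 of 7 of TC-71 and 10 of 10 of A673, and 82.5%, 73.8% and 73.6% of all tested genes did not overlap (40.7%, 36% and 36.7% with siFLI1 lower). With most genes called, a call on a member says little, and the members are described by size and direction. The median log2 fold change of the tested members was -1.95 for TC-32, -0.87 for TC-71 and -2.02 for A673, beside 0.0219, 0.0181 and -0.000563 over all tested genes. Members that passed only through the group in which they were high had to differ, so these medians describe the tested members and not all 10.

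CCK (chromosome 3, 42257825 to 42266185, minus strand in GENCODE release 44) encodes the precursor of cholecystokinin, a gut hormone and brain peptide. Its level in CPM (counts scaled to library size with TMM factors within a line) was 20.0, 18.1 and 19.1 in the TC-32 siNeg libraries and 0.575, 0.713 and 0.778 in siFLI1. The siFLI1 libraries kept 3.62% of the control mean, with a log2 fold change of -4.77 (adjusted p = 2.08e-20 by edgeR, SE 0.136). In TC-71 the levels were 2.71, 2.38 and 2.01 CPM in siNeg and 0.573, 0.115 and 0.162 CPM in siFLI1. Control and siFLI1 libraries did not overlap, and 12% of the mean was left. The TC-71 log2 fold change was -3.14 (adjusted p = 4.33e-09 by edgeR, SE 0.346), and -4.01 without siFLI1 replicate 1. That value lay outside the 95% interval of -3.82 to -2.46, so the SE understates the uncertainty in TC-71. In A673, 905, 979 and 938 counts in siNeg fell to 1, 7 and 2 counts in siFLI1. As levels these are 7.50 to 8.02 CPM and 0.00854 to 0.0604 CPM, so that 0.37% was left. The A673 log2 fold change was -8.03 (adjusted p = 7.53e-14 by edgeR, SE 0.202), and it was -9.12 without siFLI1 replicate 2, the library with 7 counts. The latter value lay outside the 95% interval of -8.43 to -7.63, so the SE understates the uncertainty of this change. Counted from the largest fall, CCK ranked 27 of 16208 tested genes for TC-32, 29 of 17085 for TC-71 and 9 of 18427 for A673. CCK shares 32.5% of its exon bases with an opposite-strand gene (RP11-333B11.1 in the tables), which held at most 5 counts in any library.

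The order of CCK levels over the 6 groups was TC-32 siNeg, A673 siNeg, TC-71 siNeg, TC-32 siFLI1, TC-71 siFLI1 and A673 siFLI1, and no neighbours in that order overlapped. Levels are set side by side across lines as a description only, since the lines were quantified in separate tables and TC-71 with another counting tool. A673 thus lay second among the controls and last after siFLI1. The fall was larger in A673 than in TC-71, with an A673 minus TC-71 difference of -4.87 (SE 0.624, edgeR interaction adjusted p = 2.87e-08). It was also larger in A673 than in TC-32, where the TC-32 minus A673 difference was 3.24 (SE 0.468, edgeR adjusted p = 1.43e-07). Between TC-32 and TC-71 the difference was -1.63 (SE 0.465, edgeR adjusted p = 0.00348), but without TC-71 siFLI1 replicate 1 it was -0.76 and no longer past the threshold (edgeR adjusted p = 0.288). That library had the highest CCK level of the TC-71 siFLI1 libraries, with 14 counts against 3 and 6.

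GRP (chromosome 18, 59220158 to 59230774, plus strand) encodes gastrin-releasing peptide, a relative of bombesin that stimulates secretion and cell growth. It was the most evenly expressed precursor in the controls, at 40.6, 39.1 and 40.6 CPM in TC-32, 71.6, 74.9 and 71.7 CPM in TC-71 and 81.2, 83.7 and 82.8 CPM in A673. After siFLI1 it was 10.3, 10.8 and 10.0 CPM in TC-32, 30.4, 27.2 and 24.3 CPM in TC-71 and 9.79, 9.40 and 9.71 CPM in A673. Every siFLI1 library lay below every control library of any line. The log2 fold changes were -1.95 in TC-32 (SE 0.0703, edgeR adjusted p = 2.74e-18), -1.42 in TC-71 (SE 0.0655, 1.83e-17) and -3.10 in A673 (SE 0.0433, 1.77e-16). All 3 pairs of lines differed in this effect, with a TC-32 minus A673 difference of 1.18 (SE 0.0875), a TC-32 minus TC-71 difference of -0.54 (SE 0.0893) and an A673 minus TC-71 difference of -1.72 (SE 0.0788). The highest edgeR adjusted p of these was 3.94e-06.

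NPY (chromosome 7, 24284188 to 24291862, plus strand) encodes neuropeptide Y, a peptide of sympathetic neurons that acts on appetite, vessel tone and vessel growth. Only A673 had more than a trace among the 3 lines. There the siNeg libraries held 30.9, 30.6 and 31.0 CPM and the siFLI1 libraries 8.33, 8.96 and 9.02 CPM, so 28.4% was left. The log2 fold change was -1.82 (adjusted p = 1.91e-13 by edgeR, SE 0.0494). TC-32 had 2, 3 and 2 counts in siNeg and 1, 4 and 2 in siFLI1, which overlap and were too few to be tested. All 6 TC-71 libraries had 0 counts, which allows up to 3 counts per library, or 0.0808 to 0.152 CPM (counting error only). A fall of NPY was not detectable in TC-71, and any level after siFLI1 lay within that bound.

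The receptors of NPY were expressed in all 3 lines, including TC-71, where NPY itself was at 0. NPY1R (chromosome 4, 163323962 to 163344832, minus strand) and NPY5R (163343892 to 163351934, plus strand) encode the Y1 and Y5 receptors. The annotated genes lie head to head and overlap by 941 bp, so that 13.3% of the NPY1R exon bases and 15.8% of those of NPY5R are shared on opposite strands. How strand was handled in the counting is not given in the sources used here, so reads from the shared bases cannot be assigned with certainty.

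NPY1R was 191, 200 and 193 CPM in A673 siNeg and 14.1, 12.8 and 12.7 CPM in siFLI1 (log2 fold change -3.88, SE 0.0487, edgeR adjusted p = 6.18e-17). In TC-32 it went from 11.9, 13.9 and 11.8 CPM to 0.881, 0.743 and 1.29 CPM (log2 fold change -3.70, SE 0.158, edgeR adjusted p = 8.97e-17). The siFLI1 libraries kept 6.78% of the control mean in A673 and 7.73% in TC-32. In TC-71 the change was much smaller, from 25.9, 30.0 and 24.8 CPM to 16.0, 17.4 and 18.2 CPM, and 64% was left. The TC-71 log2 fold change was -0.63 (adjusted p = 3.68e-08 by edgeR, SE 0.0794). The A673 minus TC-71 difference was -3.29 (SE 0.098, edgeR adjusted p = 4.2e-24) and the TC-32 minus TC-71 difference -3.08 (SE 0.171, edgeR adjusted p = 6.57e-17). The TC-32 minus A673 difference of 0.21 (SE 0.195) did not pass the test (edgeR adjusted p = 0.366), and its sign turned to -0.04 without TC-32 siFLI1 replicate 3. After siFLI1, A673 lay at 13.2 CPM, a level that overlapped the TC-32 control libraries.

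NPY5R had the control order of lines of NPY1R (A673, TC-71, TC-32), at lower levels. It was 25.1, 26.8 and 24.9 CPM in A673 siNeg and 3.16, 2.56 and 2.98 CPM in siFLI1 (log2 fold change -3.14, SE 0.0722, edgeR adjusted p = 2.84e-14). TC-71 went from 3.12, 4.26 and 3.44 CPM to 2.01, 1.64 and 2.13 CPM (log2 fold change -0.87, SE 0.174, edgeR adjusted p = 5.64e-05). TC-32 had 20, 14 and 16 counts in siNeg and 0, 7 and 3 in siFLI1 (log2 fold change -2.56, SE 0.54, edgeR adjusted p = 0.000113), and the change was -3.55 without siFLI1 replicate 2. In none of the lines did the siRNA groups overlap. The A673 minus TC-71 difference was -2.31 (SE 0.202, edgeR adjusted p = 7.66e-12) and the TC-32 minus TC-71 difference -1.71 (SE 0.525, edgeR adjusted p = 0.00554). Between TC-32 and A673 the difference was 0.60 (SE 0.581, edgeR adjusted p = 0.402), and it was -0.41 without TC-32 siFLI1 replicate 2. Per kb of exon, which allows genes to be compared, control levels in A673 were 95.9 CPM per kb for GRP, 48.9 for NPY1R, 34.6 for NPY, 7.67 for NPY5R and 3.78 for CCK. In TC-71 siNeg they were 84.5 for GRP, 6.76 for NPY1R, 1.15 for CCK and 1.08 for NPY5R. In TC-32 siNeg, CCK at 9.23 CPM per kb lay above NPY1R at 3.15 and NPY5R at 0.204, while GRP led with 46.6.

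**Figure D2:**
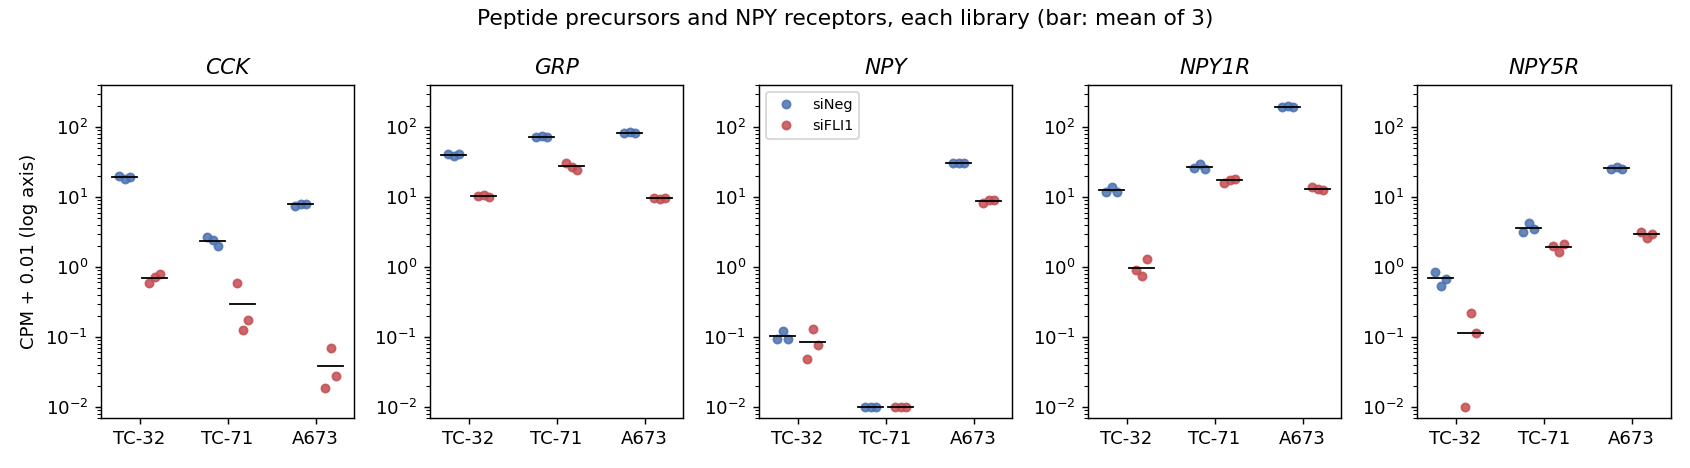
Level of CCK, GRP, NPY, NPY1R and NPY5R in each library, as CPM with 0.01 added on a log axis, for siNeg (blue) and siFLI1 (red) in each line, with the mean of 3 libraries as a bar. Points on the lowest line are libraries with 0 counts, as for NPY in all 6 TC-71 libraries, and red points lie below blue ones wherever a gene was tested.

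The granule proteins did not move as one. SCG2 (chromosome 2, 223596940 to 223602361, minus strand) encodes secretogranin II, the precursor of secretoneurin, and was the most abundant of the 5 per kb of exon in each line but changed in opposite directions. In TC-32 it fell, from 52.2, 55.1 and 45.9 CPM in siNeg to 22.3, 20.4 and 21.9 CPM in siFLI1 (log2 fold change -1.25, SE 0.0702, edgeR adjusted p = 2.5e-14). TC-71 showed a rise, from 10.6, 11.1 and 11.3 CPM to 47.8, 48.3 and 54.2 CPM (log2 fold change 2.19, SE 0.0737, edgeR adjusted p = 3.09e-21). A673 showed a rise as well, from 31.3, 30.8 and 33.3 CPM to 88.8, 83.1 and 83.1 CPM (log2 fold change 1.42, SE 0.0451, edgeR adjusted p = 1.07e-12). The siRNA groups did not overlap in any line. The interaction test gave a TC-32 minus TC-71 difference of -3.44 (SE 0.101, edgeR adjusted p = 1.39e-24) and a TC-32 minus A673 difference of -2.63 (SE 0.0879, edgeR adjusted p = 2.15e-23). The rise was larger in TC-71 than in A673, with an A673 minus TC-71 difference of -0.81 (SE 0.0949, edgeR adjusted p = 6.4e-09). TC-32, the line with the highest control level, 51.1 CPM, thus fell to 21.5 CPM, while TC-71, with the lowest, 11 CPM, reached 50.1 CPM, a level that overlapped the TC-32 controls.

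CHGB (chromosome 20, 5911510 to 5925353, plus strand) encodes chromogranin B, a granule matrix protein, and was the one member that rose in each line. In TC-32 it went from 1, 1 and 4 counts to 30, 35 and 59 counts (log2 fold change 4.03, SE 0.502, edgeR adjusted p = 6.2e-08). TC-71 went from 8, 5 and 5 counts to 62, 60 and 86 (log2 fold change 3.29, SE 0.3, edgeR adjusted p = 4.55e-11). In A673 it went from 33, 24 and 20 counts to 55, 78 and 48 (log2 fold change 1.29, SE 0.268, edgeR adjusted p = 0.000585). The groups did not overlap in any line, and the levels after siFLI1 were 1.40 ± 0.523, 2.38 ± 0.134 and 0.522 ± 0.134 CPM in TC-32, TC-71 and A673 (SD, n = 3). The log2 fold change in TC-32 was 4.97 without siNeg replicate 3, the library with 4 counts. In TC-32 and TC-71, CHGB passed the count filter only through siFLI1, where it was high, so it had to differ. The adjusted p and the lack of overlap in these lines therefore support nothing further. The A673 rise was smaller than that of TC-32 (TC-32 minus A673, 2.82, SE 0.617, edgeR adjusted p = 0.000145) and of TC-71 (A673 minus TC-71, -2.05, SE 0.479, 0.000453). The rises of TC-32 and TC-71 differed by 0.76 (SE 0.766), and the test did not pass (edgeR adjusted p = 0.419).

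VGF (chromosome 7, 101162509 to 101165569, minus strand) encodes a neuroendocrine peptide precursor that is induced by nerve growth factor. In A673 it rose from 1.19, 1.13 and 1.02 CPM to 3.03, 3.43 and 3.00 CPM (log2 fold change 1.5, SE 0.108, edgeR adjusted p = 1.22e-08). In TC-32 it had 7, 14 and 15 counts in siNeg and 17, 20 and 16 in siFLI1, which overlap as levels, and the log2 fold change of 0.29 had an interval from -0.42 to 1.00 (95%, edgeR adjusted p = 0.462). The effect in TC-32 was smaller than in A673, with a difference of -1.18 (SE 0.335, edgeR adjusted p = 0.0027). TC-71 had 2 to 3 counts in siNeg and 3 to 5 in siFLI1 and was not tested.

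CHGA (chromosome 14, 92923150 to 92935285, plus strand) encodes chromogranin A, the common clinical marker of neuroendocrine tumours, and was barely present. In A673 it fell from 114, 115 and 124 counts to 17, 24 and 31, or from 0.977 ± 0.0576 to 0.208 ± 0.0635 CPM (SD, n = 3). The log2 fold change was -2.23 (adjusted p = 3.13e-07 by edgeR, SE 0.215), opposite to that of VGF in the same libraries. TC-32 had 1, 1 and 3 counts in siNeg and 3, 3 and 1 in siFLI1, and TC-71 had 2, 0 and 2 in siNeg and 4, 4 and 4 in siFLI1. Neither line was tested, and a change of CHGA was not detectable there. The interaction test included these low counts and gave an A673 minus TC-71 difference of -3.59 (SE 0.805, edgeR adjusted p = 0.000248). The TC-32 minus A673 difference was 2.46 (SE 0.889, edgeR adjusted p = 0.0155), and it was no longer past the threshold without TC-32 siFLI1 replicate 1 (2.17, edgeR adjusted p = 0.0782) or replicate 2 (2.36, edgeR adjusted p = 0.0587).

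SCG5 (chromosome 15, 32641676 to 32697098, plus strand) encodes the 7B2 protein, the chaperone of the convertase PCSK2. Of the 3 lines TC-71 held most of it, with 6.50, 5.93 and 6.11 CPM in siNeg and 1.51, 1.99 and 1.40 CPM in siFLI1. The log2 fold change was -1.94 (adjusted p = 3.29e-12 by edgeR, SE 0.156), and 26.5% was left. TC-32 had 7, 12 and 3 counts in siNeg and 6, 12 and 10 in siFLI1 and was not tested. A673 had 10, 10 and 18 counts in siNeg and 9, 5 and 4 in siFLI1, a log2 fold change of -1.01 (SE 0.476) that missed the threshold (edgeR adjusted p = 0.0699). It passed with scaling by library size alone (-1.11, edgeR adjusted p = 0.0452) and without siFLI1 replicate 1 (-1.40, edgeR adjusted p = 0.0386). In current annotation, 51.4% of the SCG5 exon bases are shared with a readthrough gene on the same strand, and that gene was not matched in the tables. PCSK2, the partner of 7B2, was at 12.8 CPM in TC-71 siNeg, 30.2 CPM in TC-32 and 275 CPM in A673, and SCG5 itself was at 0.105 CPM in A673 siNeg.

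**Figure D3:**
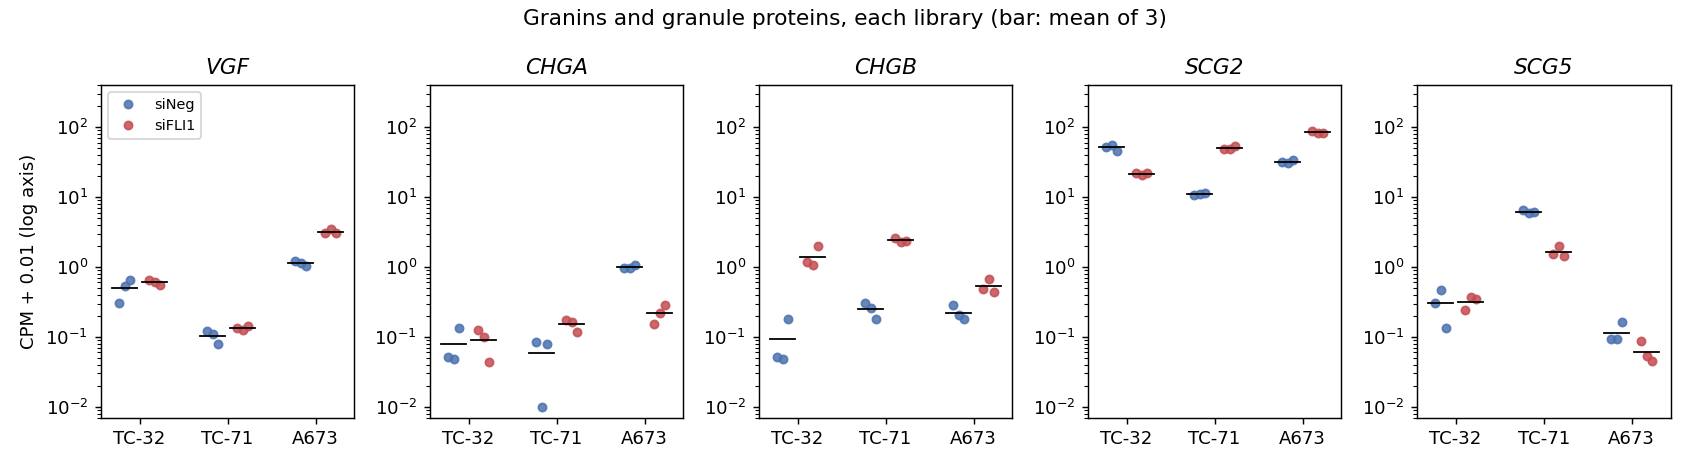
Level of VGF, CHGA, CHGB, SCG2 and SCG5 in each library, as CPM with 0.01 added on a log axis, for siNeg (blue) and siFLI1 (red) in each line, with the mean of 3 libraries as a bar. SCG2 runs from 51.1 down to 21.5 CPM in TC-32 and from 11 up to 50.1 CPM in TC-71, while CHGB rises in all 3 lines.

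**Figure D4:**
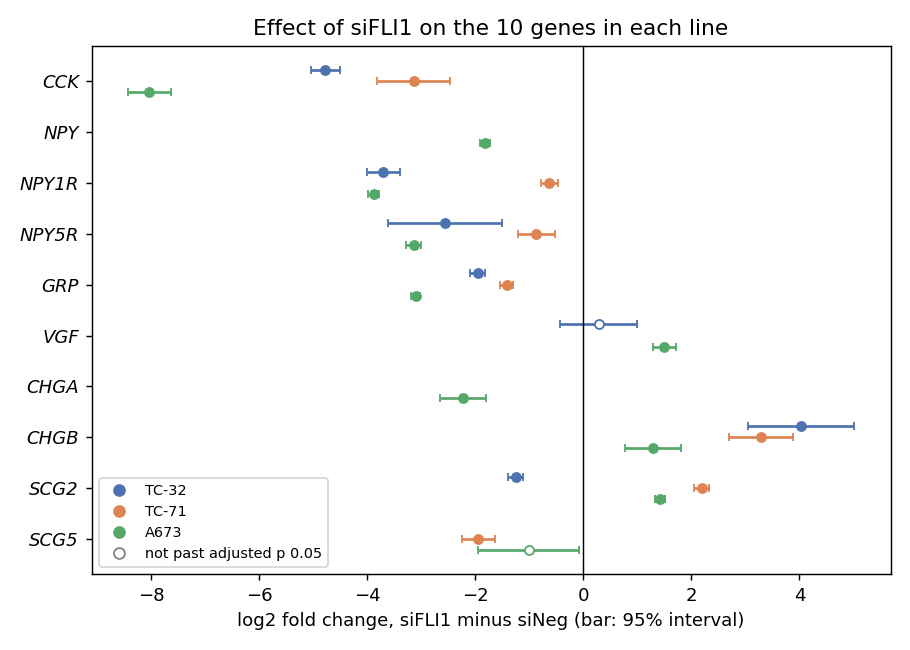
Log2 fold change of siFLI1 against siNeg for each gene and line with its 95% interval, for tested genes only, with open points for those not past an adjusted p of 0.05. CCK, GRP, NPY1R and NPY5R lie left of 0 in all 3 lines, CHGB lies right of 0 in all 3, and SCG2 lies on both sides.

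Across the members, 4 fell in every line (CCK, GRP, NPY1R and NPY5R), 1 rose in every line (CHGB), and 1 was called in opposite directions (SCG2). The other 4 (NPY, VGF, CHGA and SCG5) were tested in fewer than 3 lines. Of all tested genes, 40.1%, 35% and 35% fell and 41.3%, 36.8% and 36% rose in TC-32, TC-71 and A673. The share of genes called alike in all 3 lines was not computed, so these counts only describe the members. CCK in TC-71 and A673, NPY5R in TC-32 and CHGB in TC-32 and TC-71 passed the count filter through 1 group only. These had to differ there. By interaction, the effect of siFLI1 differed for 6 of 10 members between TC-32 and A673, for 6 of 9 between TC-32 and TC-71 and for 7 of 9 between A673 and TC-71. The shares among all 19591 genes tested were 62.1%, 53.6% and 51.7% in the same order. NPY was left out of the pairs with TC-71, where it had 0 counts. The interaction contrasts share libraries between pairs, so the 3 counts are not independent.

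The other genes of the pathway were read from lists. Among 12 peptide processing enzymes, 9 rose and 1 fell of 10 tested in TC-32, 10 rose and 1 fell of 11 in TC-71, and 10 rose and 1 fell of 12 in A673. Called enzymes made up 100%, 100% and 91.7% of those tested, beside 81.3%, 71.9% and 71% of all tested genes. Of all tested genes, 41.3%, 36.8% and 36% rose and 40.1%, 35% and 35% fell. The median log2 fold changes of the enzymes were 0.96, 1.31 and 0.62 in the same order, beside medians over all genes near 0. PCSK1, the convertase that begins the trimming of many precursors, rose in TC-32 (log2 fold change 3.15), TC-71 (5.17) and A673 (2.57). From 0.337 ± 0.0984 CPM in TC-71 siNeg it reached 12.6 ± 0.542 CPM (SD, n = 3). PCSK2, the other convertase of the granule, was the one enzyme called lower throughout, at log2 fold changes of -2.20, -2.31 and -1.32. CPE, the carboxypeptidase that removes the basic residues left by convertases, rose by 1.17, 1.31 and 0.70, and PCSK5 by 0.76, 1.53 and 1.48. ECE1, the endothelin-converting enzyme, rose by 2.72, 1.88 and 1.27, to 391 CPM in TC-32 siFLI1. Among these 5 enzymes and 3 lines, the highest adjusted p from edgeR was 0.0349, for PCSK5 in TC-32, where the siRNA groups overlapped.

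Of 21 genes of the granule membrane and of exocytosis, 7 rose and 5 fell of 15 tested in TC-32. In TC-71, 11 rose and 3 fell of 17, and in A673, 8 rose and 7 fell of 17. Medians were 0.22, 0.86 and 0.08 in the order TC-32, TC-71 and A673. Called genes made up 80%, 82.4% and 88.2% of those tested, beside 81.3%, 71.9% and 71% of all tested genes. CADPS2, which primes dense-core granules for release, fell in each line, from 90.1 to 25.8 CPM in TC-32, from 77.9 to 35.3 CPM in TC-71 and from 166 to 53.5 CPM in A673. RAB3A, a small GTPase of secretory vesicles, fell as well, with log2 fold changes of -1.06, -1.52 and -1.76. RAB27B, a GTPase that docks granules, rose by 4.03, 0.99 and 3.11, and the calcium sensor SYT7 by 1.54, 0.92 and 1.59. SYT11 rose by 1.01, 0.87 and 0.86 and HID1, which acts in granule formation, by 1.99, 1.85 and 0.62. CYB561, the electron carrier of the granule membrane, fell in TC-32 (-1.04) and rose in TC-71 (0.38) and A673 (1.2). RAB3D rose in TC-32 (0.17) and TC-71 (0.86) and fell in A673 (-0.84). Of these 8 genes, HID1 in A673 had the highest adjusted p (edgeR, 0.0382), and its siRNA groups overlapped.

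Among 32 other precursors, 12 were tested for TC-32, 14 for TC-71 and 19 for A673. Of these, 5, 5 and 6 rose and 5, 4 and 11 fell, with medians of 0.19, 0.16 and -0.86. The called share was 83.3%, 64.3% and 89.5%, beside 81.3%, 71.9% and 71% of all tested genes. ADM, the precursor of the vasodilator adrenomedullin, rose in TC-32 (log2 fold change 3.10), TC-71 (2.43) and A673 (4.12), to 167, 33.0 and 171 CPM. UCN2, the precursor of urocortin 2, rose by 5.63, 1.98 and 2.46. NMB, neuromedin B and a relative of GRP, fell throughout (log2 fold changes -2.34, -0.59 and -0.40). PENK, the enkephalin precursor, rose in TC-32 (2.85) and TC-71 (2.51) and fell in A673 (-1.39), and NTS, the neurotensin precursor, fell in TC-32 (-5.03) and A673 (-2.91) and rose in TC-71 (1.16). The highest edgeR adjusted p among these 5 genes was 0.00427, for NTS in TC-71.

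Listed receptors for the members' peptides other than NPY1R and NPY5R were low, with means of at most 2.47 CPM in any group. NPY5R was low as well in TC-32, at 0.68 CPM in siNeg and 0.103 CPM in siFLI1. CCKAR, a receptor for cholecystokinin, rose from 0.268 ± 0.0287 to 2.47 ± 0.476 CPM in TC-32 (SD, n = 3, log2 fold change 3.17, edgeR adjusted p = 6.35e-10), and CCKBR, the other one, fell there from 1.29 to 0.0762 CPM (-3.96, 6.34e-08). CCKAR in A673 was 0.570 CPM in siNeg and 0.554 CPM in siFLI1 (edgeR adjusted p = 0.846). GRPR, the receptor of gastrin-releasing peptide, rose in A673 from 0.0748 to 2.26 CPM (4.90, edgeR adjusted p = 1.14e-11) and in TC-71 from 0.237 to 1.05 CPM (2.15, 2.49e-05), while its ligand fell in both. In TC-32 GRPR had 15, 16 and 7 counts in siNeg and 0, 3 and 1 in siFLI1 and was not tested. CCKAR, CCKBR and GRPR were singled out after their values were seen, as the receptors of CCK and GRP. Where they were called, they passed the count filter only through the group in which they were high, so they had to differ. The adjusted p of those changes support nothing further. Whether the changes of GRP and GRPR are linked was not tested. Of 20 receptors found from a list of 21, 6 rose and 2 fell of 8 tested in TC-32. In TC-71, 4 rose and 0 fell of 6, and in A673, 4 rose and 3 fell of 10. Medians were 1.58, 1.73 and 0.05 in the order TC-32, TC-71 and A673. The called share was 100%, 66.7% and 70%, beside 81.3%, 71.9% and 71% of all tested genes. Several of these receptors had few counts in 1 group, such as EDNRB in TC-32 (1, 0 and 0 counts in siNeg and 15, 27 and 16 in siFLI1). A gene that passed the count filter only through the group where it was high had to differ, so the counts and medians of this and the other lists describe the tested genes and support nothing further. SSTR2, a somatostatin receptor, rose by 3.11, 1.31 and 1.62 and the endothelin receptor EDNRA by 1.65, 2.76 and 0.49. ADCYAP1R1, the receptor for the peptide PACAP, rose in TC-32 (1.51) and fell in A673 (-1.44).

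Among regulators of neuroendocrine genes, 5 of 9 were tested for TC-32, 6 for TC-71 and 5 for A673, and each tested one was called, where 81.3%, 71.9% and 71% of all tested genes were. REST, the repressor that silences many granin genes outside neurons, rose in TC-32 (log2 fold change 0.41), TC-71 (0.69) and A673 (0.15), from 43.8 to 58.2 CPM in TC-32. The A673 value had an edgeR adjusted p of 0.00406. Its partner RCOR1 fell, with log2 fold changes of -1.36, -0.75 and -0.89, and so did CREM, a factor that binds cyclic AMP response elements (-1.74, -0.34 and -1.42). CREB1, another such factor, rose in TC-32 (0.15, edgeR adjusted p = 0.0305, groups overlapping) and fell in TC-71 (-0.15) and A673 (-0.26). The log2 fold changes of NKX2-2, a neural homeobox factor, were -2.11, -0.52 and -1.79 in that order. A list of granin-type cargo held 5 further genes, of which 1, 2 and 3 were tested in TC-32, TC-71 and A673. The higher ones numbered 1, 1 and 2 and the lower ones 0, 1 and 0. SCG3, the granin that anchors cargo to the granule membrane, averaged at most 0.103 CPM in any group and was not tested.

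**Figure D5:**
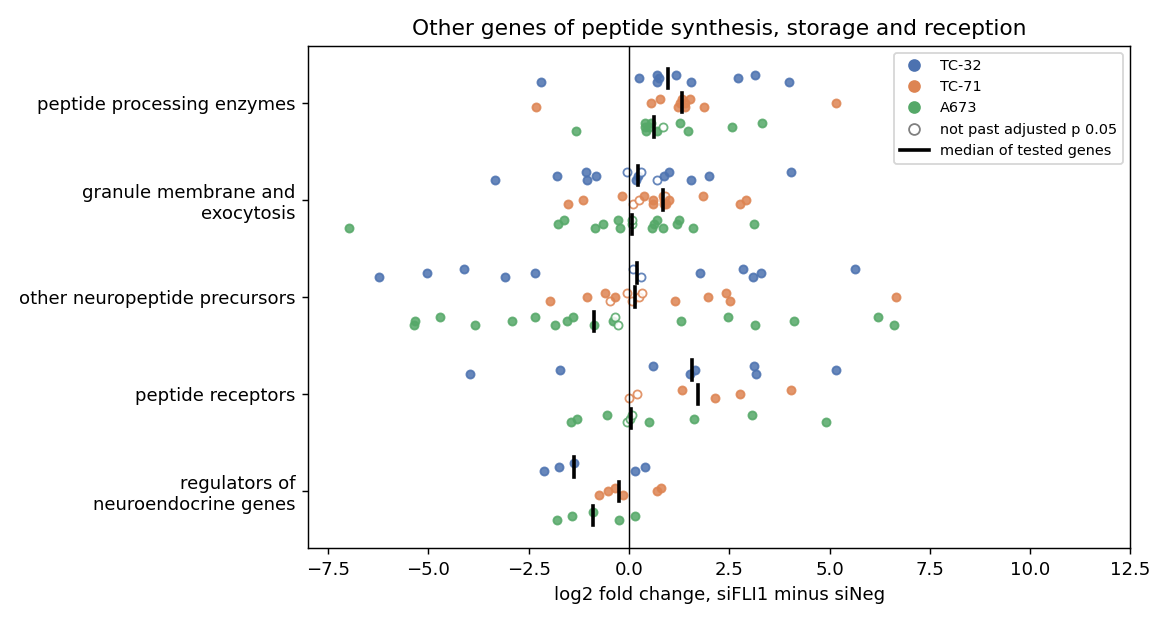
Log2 fold change of siFLI1 against siNeg for each tested gene of 5 lists, by line (colours), with open points for genes not past an adjusted p of 0.05 and a black bar at the median of the tested genes. Processing enzymes lie mostly right of 0, with PCSK2 as the point left of 0 in each line, while precursors and exocytosis genes spread to both sides (the A673 exocytosis point farthest left is SYT4, with 0 counts in all siFLI1 libraries, so its place depends on the prior count).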

How the data were processed

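Stranded messenger RNA libraries were sequenced, per the labels' protocols. The TC-32 and A673 values are expected counts deposited by the authors, and their table names credit RSEM. The TC-71 values are read counts deposited by the authors, and the table name credits Subread. The submitters' processing notes name cutadapt 4.4, STAR 2.7.3, featureCounts, Subread 2.0.3, limma 3.38.3 and GRCh38, with no role per table. The RSEM version, annotation release and strand setting are not given in the sources used here. Another line and another siRNA named in the labels' protocols were not analysed here. Some marker genes are not reported here.

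The Y copies of 45 pseudoautosomal genes were added to their X copies, and expected counts were rounded. Each line had its own fit in edgeR 4.0.16 (R 4.3.3) with filterByExpr, TMM and the robust quasi-likelihood F-test, and the Benjamini-Hochberg adjustment ran over all genes tested at a threshold of 0.05. Log2 fold changes are shrunken (prior count 0.125), and SDs are over 3 libraries. Each SE is the absolute unshrunken log2 fold change divided by the square root of the F statistic. It is thus not a direct estimate, and it can be too small where a group holds few counts. The 95% intervals reach 1.96 SE to each side, a normal multiple, and can be narrower than the F-test implies. For SCG5 in A673 the interval of -1.94 to -0.07 left out 0, while the unadjusted p of the F-test was 0.0509. Differences between lines were contrasts in a model of all 18 libraries. Depth sets the precision, and a count of 0 allows up to 3 counts (counting error only). The fits were tested on simulated data in which few genes changed, all of them upwards. The simulation thus does not cover a response in which most genes change in both directions.

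The 10 genes and all lists were chosen with earlier results of these data known. The rule for naming took the 10 genes, FLI1, REST and, from each list, at most 4 genes per direction called alike in all 3 lines, by their smallest absolute change, and at most 2 called in opposite directions. Alternatives tried were RLE factors, plain library size, filtering of zero genes only, filtering at 10 counts on average, DESeq2 1.42.0, limma-voom (limma 3.58.1), unrounded values, the replicate block, each library omitted in turn and, for differences, a fit of only the 12 libraries compared. Positions and exon lengths are from GENCODE release 44 (GRCh38), in which 57754 of 58336 identifiers were found, and were read with Python 3.11.15. Promoters are from RefSeq (GRCh38.p14).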

Additional observations from a re-analysis of the deposited data

Results flagged for a closer look

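By the interaction test (edgeR adjusted p under 0.05), 19 siFLI1 effects differed, counted as combinations of a gene and a pair of lines. These were 6 of 10 members tested for TC-32 and A673, 6 of 9 for TC-32 and TC-71 and 7 of 9 for A673 and TC-71. Of all 19591 genes tested, 62.1%, 53.6% and 51.7% differed in the same order, so a call on a member says little. Each value below is the log2 fold change in the first line minus that in the second. For TC-32 minus A673, the differences were those of CCK (3.24), GRP (1.18), VGF (-1.18), CHGA (2.46), CHGB (2.82) and SCG2 (-2.63). For TC-32 minus TC-71, they were those of CCK (-1.63), NPY1R (-3.08), NPY5R (-1.71), GRP (-0.54), SCG2 (-3.44) and SCG5 (2.00). For A673 minus TC-71, they were those of CCK (-4.87), NPY1R (-3.29), NPY5R (-2.31), GRP (-1.72), CHGA (-3.59), CHGB (-2.05) and SCG2 (-0.81). The differences of SCG2 between TC-32 and each other line are the ones in which both lines were called in opposite directions. CHGA in TC-32 and TC-71 and SCG5 in TC-32 had too few counts for a test of their own. TC-71 was counted with another tool, so that the line and the tool cannot be told apart. The extent of knockdown differed by line as well, with 48.9%, 35.9% and 23.6% of FLI1 RNA left in TC-32, TC-71 and A673. A673 also had deeper libraries and no stated time. These too cannot be told apart from the line.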

How the results depend on the processing

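Every member called in a line kept its direction and its call under every alternative that gave a value, and SCG5 in A673 was the one gained. The called members numbered 6 for TC-32, 7 for TC-71 and 9 to 10 for A673. Called genes numbered 12685 to 14674 (TC-32), 11502 to 13141 (TC-71) and 12339 to 14031 (A673). Members with differing effects numbered 5 to 7 for TC-32 and A673, 5 to 6 for TC-32 and TC-71 and 7 for A673 and TC-71. With a library left out, 3 differences that were not past the threshold turned sign. NPY1R between TC-32 and A673 ranged from -0.04 (without TC-32 siFLI1 replicate 3) to 0.41, and NPY5R from -0.41 (without TC-32 siFLI1 replicate 2) to 1.1. VGF between TC-32 and TC-71 ranged from -0.4 to 0.07 (without TC-32 siNeg replicate 3), and was 0.06 without TC-71 siNeg replicate 3. The NPY difference between TC-32 and A673 passed with limma-voom (1.49) and without TC-32 siFLI1 replicate 1 (1.86), and that of SCG5 without TC-32 siNeg replicate 2 (1.6). The called differences that moved by over 1.5 times, taken as unlogged ratios, are listed here in log2. CCK between A673 and TC-71 was -4.01 without TC-71 siFLI1 replicate 1 and -5.9 without A673 siFLI1 replicate 2. Between TC-32 and A673, CCK was 4.27 without A673 siFLI1 replicate 2. Between TC-32 and TC-71, CCK was -0.76 and no longer called without TC-71 siFLI1 replicate 1. CHGA and CHGB between TC-32 and A673 were 3.2 and 3.81 without TC-32 siNeg replicate 3. NPY5R between TC-32 and TC-71 was -2.73 without TC-32 siFLI1 replicate 2. The cause was not tested. With plain library size, the median of all A673 genes moved from -0.000563 to -0.109, and higher genes made up 40.9% of its calls, beside 50.7%. SCG5 in A673 gave no value at a mean of 10 counts.

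Same-numbered libraries did not deviate together. Over 9 pairs the correlation of deviations from the group means ranged from -0.334 to 0.0537, and 2 of 18 libraries correlated best with their own number. With the replicate block, 13033 genes were called for TC-32, 12048 for TC-71 and 12422 for A673, and 6, 7 and 9 members. Low counts limit NPY, CHGA and SCG5 in TC-32 and CHGA and VGF in TC-71.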
